A study of Equus caballus with 4 samples.

Results

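The genes described here are those of the Wnt pathway: the Wnt ligands, their frizzled and LRP receptors, the secreted antagonists and R-spondins, the cytoplasmic proteins that pass the signal on, the TCF factors and the CCN family (*wisp*) genes. They were taken from the array by gene symbol alone, but the choice was made with earlier results of these data known. In total, 41 of the 24998 gene names and accessions on the array matched, with 71 of the 43603 probes. Of these, 19 genes with 28 probes had enough signal to be tested, among 13975 genes and 24669 probes tested on the whole array. The remaining 22 genes are accounted for below.

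Wnt ligands are secreted, lipid-modified proteins that bind a frizzled receptor together with the co-receptor LRP5 or LRP6. In the canonical branch, dishevelled then holds back the complex of axin, APC and GSK3, which otherwise marks beta-catenin for degradation, and beta-catenin enters the nucleus to act with TCF factors. In skeletal muscle, the pathway is known for its part in the commitment and differentiation of satellite cells during growth and repair.

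Equine satellite cells (ESC), the stem cells of muscle, were isolated from *m. semitendinosus* of healthy stallions aged 6 months and were used on day 3 of differentiation. HMB (β-hydroxy-β-methylbutyrate, a leucine metabolite) was given to the HMB-treated group at 50 µM for 24 h, and 3 mM H2O2 was present in the final 1 h. The control group had H2O2 but no HMB, so both groups were under oxidative stress and the comparison asks what HMB changed in stressed cells. Each of 4 arrays carried HMB-treated RNA labeled with Cy5 and control RNA labeled with Cy3. A positive log2 ratio means a higher level in the HMB-treated group.

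The dyes were not swapped, so treatment and dye cannot be told apart. All 4 control labels carry one replicate number, and the methods select the best culture. Hence, the errors given here may lack the spread between controls and n = 4 need not stand for 4 horses. All arrays lay on 1 slide. The share of spots well above background was 57.6% to 60.6% with Cy3 and 55.2% to 61.8% with Cy5. Gene ratios correlated between pairs of arrays with r between 0.835 and 0.911 across genes, which are not independent replicates. A gene was called at an adjusted p of 0.05 or less by limma with Benjamini-Hochberg correction and an FC of 1.3 or more. With 4 arrays, the precision of each value is limited.

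The cultures were bulk samples, and in them fewer cells of a type and less RNA per cell cannot be told apart. All 9 skeletal muscle markers on the array were tested, and 7 of them fell, with a median log2 ratio of −1.05. Their summed signal lay between 169700 and 191500 in the control channel and between 64770 and 103000 in the HMB channel. Among those that fell, *myf6* (−0.84) passed the filter through the control channel only, which favored a lower value with HMB. *myod1* (0.10) and *myog* (0.03), the regulators of muscle commitment and differentiation, did not pass the test. Of 7 fibroblast markers tested, 5 rose and none fell, with a median of 0.74 and summed signals of 417000 to 507200 in the control and 410800 to 641500 with HMB. Of the 6 leukocyte markers on the array, 2 were tested, of which *cd68* rose (0.88) and *cd14* (0.20) did not pass. *csf1r* was well above background on 1 array in the control channel only, and *itgam*, *cd3e* and *cd79a* on none in either channel. None of the 6 endothelial and none of the 3 fat cell markers was well above background on all arrays in either channel. Of 3 smooth muscle and pericyte markers tested, none was called. The part of these shifts in the values of the Wnt pathway genes was not tested.

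The sequences below are the probes behind 7 of the 8 called genes, together with that of *dvl2*, which is set against *dvl1*. Each has at least 1 sense frame without an internal stop codon. Each line is the 60-base probe in the orientation of the transcript, 5′ to 3′, with its position on the EquCab1 build as the files give it. They show which part of a transcript each value below was read from. The probe of *wnt2b*, which also has such a frame, is not shown. The files give no exon for any probe, and the place of the probes relative to the coding sequence was not checked.

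The probe of *dkk1* lies on chr1:42190204-42190263 (+).
dkk1: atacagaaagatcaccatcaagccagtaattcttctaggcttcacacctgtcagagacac

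The probes of *fzd10* lie on the unplaced sequence, at chrUn:198524766-198524825 (−) and chrUn:198524723-198524782 (−). Capitals mark the 17 bases that both probes share, so the probes are not independent of each other.
fzd10 upstream: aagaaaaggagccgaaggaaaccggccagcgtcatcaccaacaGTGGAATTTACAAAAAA
fzd10 downstream: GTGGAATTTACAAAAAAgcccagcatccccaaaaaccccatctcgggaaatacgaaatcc

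The probe of *lrp5* spans 2030 bases of the genome, chr12:18145530-18147559 (+), and therefore crosses at least 1 intron.
lrp5: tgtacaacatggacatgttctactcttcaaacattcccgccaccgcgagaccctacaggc

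The probe of *wnt3* lies on chr11:16834431-16834490 (−), that of *wnt5b* on chr6:29312811-29312870 (−).
wnt3: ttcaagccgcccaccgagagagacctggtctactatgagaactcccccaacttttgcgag
wnt5b: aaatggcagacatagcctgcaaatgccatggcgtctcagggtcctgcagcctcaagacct

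The probe of *rspo1* lies on chr2:18399415-18399474 (+).
rspo1: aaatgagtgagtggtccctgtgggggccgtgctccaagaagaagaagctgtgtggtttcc

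The probes of both dishevelled genes can be set base against base without gaps, and each ends in the stop codon of an otherwise open frame. They lie on chrUn:253771088-253771147 (+) for *dvl1* and chr11:49050128-49050187 (−) for *dvl2*. They have the same base at 47 of 60 positions, and capitals mark the 13 that differ.
dvl1: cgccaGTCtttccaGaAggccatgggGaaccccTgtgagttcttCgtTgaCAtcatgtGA
dvl2: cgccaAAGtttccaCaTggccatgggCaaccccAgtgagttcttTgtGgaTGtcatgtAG

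Of the 19 tested Wnt pathway genes, 8 were called, of which HMB-treated cells had 2 at a higher and 6 at a lower level. Of all genes tested, 28.9% were called, 12.5% higher and 16.4% lower. The median log2 ratio of the 19 was −0.24, against −0.06 over all genes, and the median size of the ratio was 0.28 against 0.23. The higher genes were the antagonist *dkk1* and the R-spondin *rspo1*, while the lower ones were ligands (*wnt2b*, *wnt3*, *wnt5b*), receptors (*fzd10*, *lrp5*) and *dvl1*. A further 3 genes passed the adjusted p but not the FC, namely *ctnnb1*, *lrp6* and *fzd1*. For 4 of the 6 lower genes (*fzd10*, *lrp5*, *wnt2b* and *wnt3*), the probe entered the test through the control channel only, so the filter favored a lower value with HMB and these calls are a description. When both channels had to be above background on all arrays, 15 of the 41 genes were tested and *dkk1*, *rspo1*, *dvl1* and *wnt5b* were called, where 25.9% of all genes were called.

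**Figure D1:**
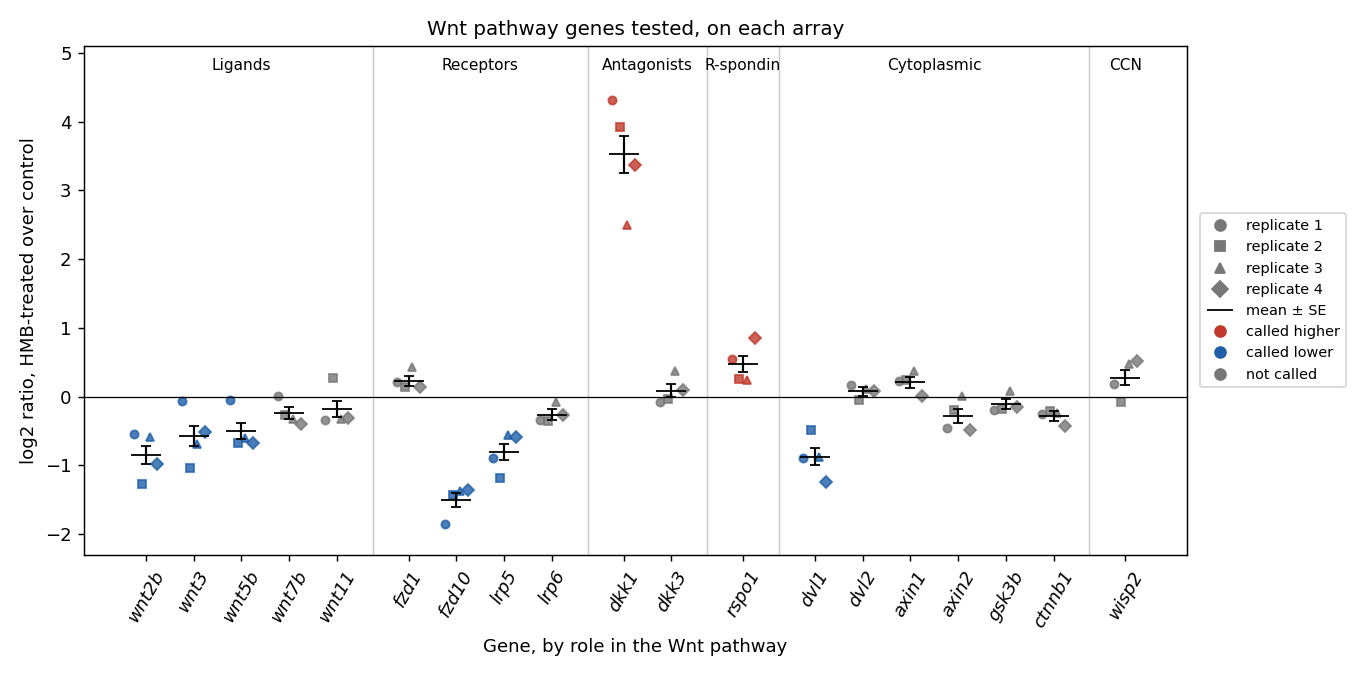
Log2 ratio of HMB-treated over control (y axis) of the 19 tested Wnt pathway genes (x axis, by role) on each of the 4 arrays, with the symbol giving the replicate and the bar the mean ± SE from limma. The antagonist *dkk1* stood between 2.49 and 4.31 on the arrays, whereas the other genes lay between −1.85 and 0.85.

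Among the antagonists, 2 were tested and *dkk1* rose. *dkk1*, which binds LRP5 and LRP6 and keeps Wnt ligands from using them, had log2 ratios of 4.31, 3.92, 2.49 and 3.37 on replicates 1 to 4. Its normalized signal was 43.2, 68.5, 136 and 64.8 in the control channel and 857, 1038, 762 and 668 in the HMB channel. The lowest HMB signal was far above the highest control signal, and replicate 3, with the lowest ratio, had the highest control signal. The mean log2 ratio was 3.52 ± 0.28 (SE, n = 4), an FC of 11.5, with an adjusted p of 1.989e-04 by limma. This was the largest change among the tested Wnt pathway genes and the 77th highest ratio of the 13975 genes.

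*dkk3*, a divergent relative of *dkk1* whose action on LRP receptors is less clear, had log2 ratios of −0.08, −0.04, 0.37 and 0.10. They lay on both sides of 0, and the mean of 0.09 ± 0.09 had an adjusted p of 0.463 by limma. *dkk2* reached at most 2 arrays above background in each channel and could not be tested. *sfrp1*, a secreted protein that binds Wnt ligands directly, had 5 probes that overlap almost fully. Each was above background on 1 array in the HMB channel and on 0 in the control channel.

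**Figure D2:**
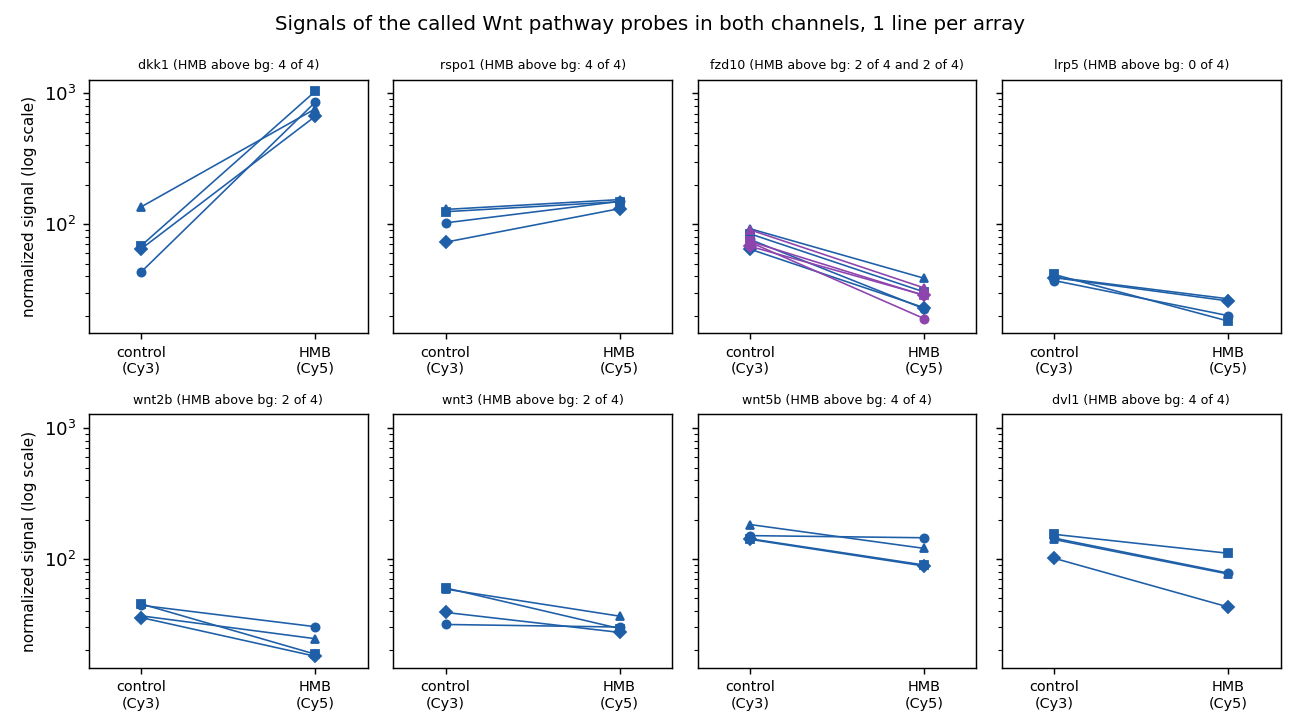
Normalized signal (y axis, log scale) of the tested probes of the 8 called Wnt pathway genes in the control (Cy3) and HMB (Cy5) channels, with 1 line per array and, for *fzd10*, 1 color per probe; titles give on how many arrays the HMB channel was well above background (bg). The lines of *dkk1* climbed from 43.2 to 136 up to 668 to 1038, whereas those of *lrp5*, *wnt2b*, *wnt3* and *fzd10* ended at signals that were not well above background on all arrays.

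The R-spondins strengthen Wnt signaling by binding LGR receptors, which keeps frizzled receptors at the cell surface. *rspo1* was the only one of the 4 on the array that could be tested. Its log2 ratios were 0.55, 0.25, 0.25 and 0.85, all above 0, with replicate 4 the highest. The signal was 102, 125, 130 and 72.9 in the control channel and 149, 149, 154 and 132 in the HMB channel, so the HMB values lay above every control value. The mean was 0.48 ± 0.11 (SE, n = 4), an FC of 1.39, with an adjusted p of 0.0159 by limma, but it was −0.16 when the arrays were centered on spike-in RNA, where the median of all genes was −0.675. Without replicate 4 the mean was 0.35 and the gene was no longer called. *rspo2*, *rspo3* and *rspo4* were at background in both channels on all arrays.

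Of the 7 frizzled and LRP receptors, 4 were tested, and *fzd10* and *lrp5* fell. *fzd10*, a Wnt receptor, had log2 ratios of −1.85, −1.42, −1.37 and −1.36, with replicate 1 apart from the others. The control signals of its 2 probes lay between 64.5 and 92.4 and the HMB signals between 19.0 and 38.7, with no overlap. The mean was −1.50 ± 0.10 (SE, n = 4), with an adjusted p of 1.043e-04 by limma, and the means of the probes were −1.49 and −1.51. Only 2 of 4 arrays had the HMB channel well above background and the filter was passed through the control alone, so the size of the fall is uncertain. The mean was −0.43 with normexp and loess, and was still called. *fzd1*, a receptor of the same family, had ratios between 0.14 and 0.43, all above 0, and its mean of 0.23 ± 0.07 passed the adjusted p (0.0425 by limma) but not the FC.

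The co-receptors *lrp5* and *lrp6* are close relatives that carry the canonical signal together with frizzled. *lrp5* had log2 ratios of −0.89, −1.18, −0.55 and −0.59. Its signals were 37.1, 41.3, 39.4 and 39.1 in the control channel and 20.0, 18.2, 26.9 and 25.9 in the HMB channel. The groups did not overlap, but the HMB channel was not well above background on any array. With the deposited ratios, average intensities quantile-normalized between arrays and a floor under the HMB signals, the mean of *lrp5* was 1.56-fold lower with HMB. The adjusted p was 0.00236 by limma, for a probe that the filter let in through the control alone. The ratio was −0.16 with normexp and loess, and *lrp5* was not called there. The value of 1.56 holds for the mean and not for single arrays. It sets the mean of the control signals against the mean of the floor. That floor is the faintest signal of any probe well above background on each array, or the probe's own where higher. It is no detection limit for this probe, so 1.56 is not a lower limit of the fall across normalizations.

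*lrp6* was read by 4 overlapping probes with means between −0.38 and −0.17. As a gene, it had ratios of −0.34, −0.35, −0.08 and −0.27 and a mean of −0.26 ± 0.07, which passed the adjusted p (0.0284 by limma) but not the FC. The difference between *lrp5* and *lrp6* was not tested. Of the receptors not tested, *fzd3* and *fzd4* were above background on at most 1 array per channel and *fzd6* on none. Without the filter on dim probes *fzd4* had a mean of 0.68 over 3 probes (adjusted p 0.0318 by limma), which rested on 1 probe at 2.02, with the other 2 at −0.08 and 0.10.

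Of the 15 Wnt ligands on the array, 5 were tested, and *wnt2b*, *wnt3* and *wnt5b* fell. *wnt2b*, which acts mainly through the canonical branch, had log2 ratios of −0.54, −1.28, −0.58 and −0.98. Its signals were 44.2, 45.3, 36.7 and 35.7 in the control channel and 30.4, 18.7, 24.6 and 18.0 in the HMB channel. They did not overlap, although the HMB channel was well above background on 2 arrays only. The mean was −0.85 ± 0.13 (SE, n = 4), with an adjusted p of 0.00324 by limma, for a probe that passed the filter through the control alone. It was −0.16 with normexp and loess and was not called there.

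*wnt3*, another ligand of the canonical branch, had log2 ratios of −0.07, −1.03, −0.69 and −0.51, and replicate 1 was close to 0. Its signals were 31.6, 60.1, 58.8 and 39.0 in the control channel and 30.2, 29.4, 36.5 and 27.5 in the HMB channel. The groups overlapped, and the HMB channel was well above background on 2 arrays. The mean was −0.57 ± 0.15 (SE, n = 4), with an adjusted p of 0.0212 by limma, again for a probe that passed the filter through the control alone. It was −0.13 with normexp and loess and was not called there. The call was lost without replicate 2 (−0.42) or replicate 3 (−0.53).

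*wnt5b*, a ligand known for signaling outside the canonical branch, had log2 ratios of −0.06, −0.67, −0.61 and −0.68. Its signals were 151, 143, 183 and 141 in the control channel and 145, 89.9, 121 and 88.4 in the HMB channel. Replicate 1 showed nearly equal channels, and the groups overlapped there. The mean was −0.50 ± 0.12 (SE, n = 4), an FC of 1.42 downwards, with an adjusted p of 0.0147 by limma. The call was lost without replicate 2 (−0.45), 3 (−0.47) or 4 (−0.44).

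*wnt7b* and *wnt11*, a canonical ligand and a ligand of the planar polarity branch, were not called. *wnt7b* had ratios between −0.39 and 0.02 and a mean of −0.24 ± 0.09 (adjusted p 0.0579 by limma). *wnt11* had ratios of −0.35, 0.27, −0.33 and −0.31, with replicate 2 alone above 0, and a mean of −0.18 ± 0.12 (adjusted p 0.256 by limma). The other 10 ligands were not tested. Of these, *wnt7a*, *wnt9b* and *wnt10b* were above background on 1 or 2 arrays, and *wnt1*, *wnt2*, *wnt4*, *wnt8a*, *wnt8b*, *wnt9a* and *wnt16* on none. For *wnt4* this held for each of 5 probes, which overlap almost fully.

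Of the 7 cytoplasmic components, 6 were tested and *dvl1* fell. *dvl1* and *dvl2* encode dishevelled proteins, which pass the signal from frizzled to the axin complex. *dvl1* had log2 ratios of −0.89, −0.48, −0.88 and −1.24, with signals of 144, 154, 141 and 101 in the control channel and 78.0, 111, 76.7 and 42.9 in the HMB channel. On each array the HMB signal was the lower, although replicate 2 with HMB (111) lay above replicate 4 of the control (101). The mean was −0.87 ± 0.12 (SE, n = 4), an FC of 1.83 downwards, with an adjusted p of 0.00199 by limma.

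*dvl2*, read by the corresponding stretch shown above, had log2 ratios of 0.17, −0.06, 0.12 and 0.08 and a mean of 0.08 ± 0.07 (adjusted p 0.376 by limma). No ratio of *dvl1* overlapped with those of *dvl2*. The difference between both genes was not tested.

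The scaffold genes of the destruction complex were not called. *axin1* had ratios between 0.01 and 0.37 and a mean of 0.21 ± 0.08 (adjusted p 0.0675 by limma), from 2 probes that differ by 1 base in position. *axin2*, also a feedback target of beta-catenin, had ratios of −0.46, −0.19, 0.02 and −0.49 and a mean of −0.28 ± 0.10 (adjusted p 0.0595 by limma). These values came from 1 of its 2 probes, as the other was at background in both channels on all arrays. With no filter on dim probes the mean was −0.15 (adjusted p 0.659 by limma). Without replicate 3 the mean of the tested probe was −0.38 and the gene was called. *gsk3b*, the kinase of the complex, had ratios between −0.19 and 0.08 and a mean of −0.11 ± 0.07 (adjusted p 0.254 by limma). *apc* was above background on 2 arrays in the control channel and 1 in the HMB channel and was not tested.

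*ctnnb1*, which encodes beta-catenin, had ratios of −0.26, −0.20, −0.23 and −0.43, all below 0. The mean was −0.28 ± 0.07 (SE, n = 4), which passed the adjusted p (0.0169 by limma) but stayed under the FC of 1.3. Its 5 probes had means between −0.32 and −0.24, and 4 of them overlap. The TCF factors *tcf7* and *tcf7l1* were not tested. Of the CCN family, *wisp2*, a secreted matrix protein known to respond to Wnt signaling, had ratios of 0.18, −0.07, 0.48 and 0.52 and a mean of 0.28 ± 0.11 (adjusted p 0.083 by limma). Without replicate 2 it was 0.39 and was called. *wisp3* was at background on all arrays.

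**Figure D3:**
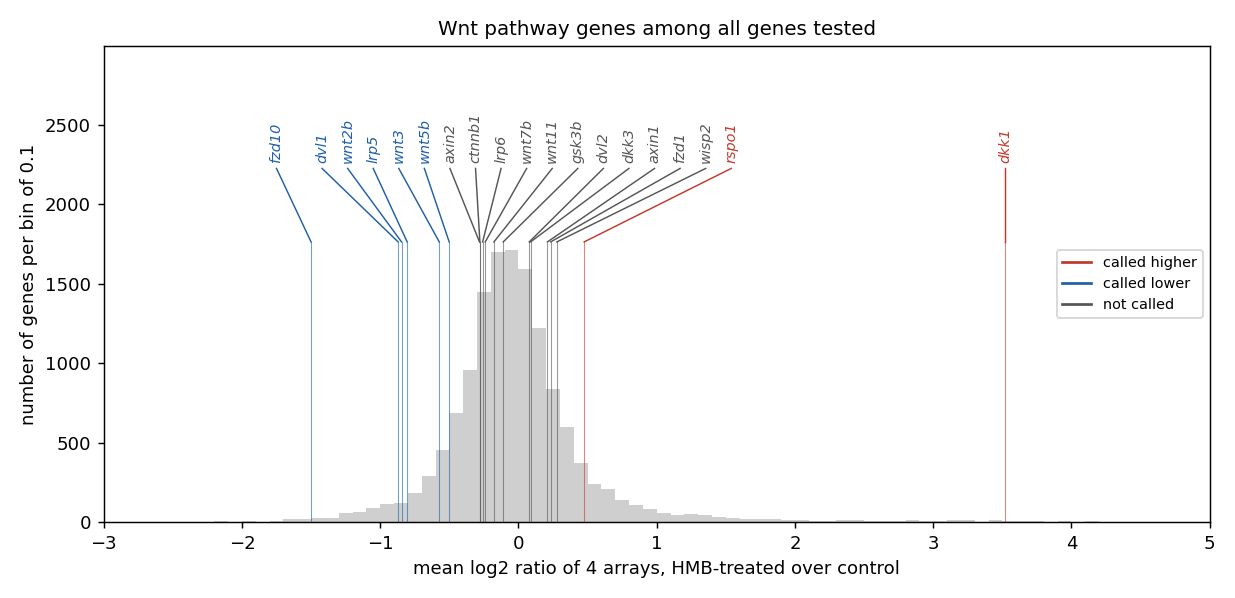
Number of genes per bin of 0.1 (y axis) against the mean log2 ratio of HMB-treated over control (x axis) for all 13975 tested genes (gray bars), with the 19 Wnt pathway genes drawn as lines and named. *dkk1* (3.52) lay far out in the upper tail and *fzd10* (−1.50) in the lower tail, whereas the genes not called lay between −0.28 and 0.28.

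Several calls were lost when background correction and normalization were redone together from the raw intensities. With limma's normexp background correction (offset 50) and loess, only *dkk1* (2.26) and *fzd10* (−0.43) were called. The offset is added to both channels and draws the ratios of dim probes towards 0. The values of the others were 0.26 for *rspo1*, −0.31 for *dvl1*, −0.19 for *wnt5b*, −0.16 for *wnt2b* and for *lrp5* and −0.13 for *wnt3*. With no background correction and loess, *dkk1* (2.63), *fzd10* (−0.63) and *dvl1* (−0.46) were called. Over all genes, 43.2% of calls were higher as deposited, against 57.1% with normexp, 62.1% with no background correction, 55.5% after a correction for GC content and 4.41% after centering on spike-in RNA. The median of all genes was −0.675 in that last setting, and 15 of the 19 Wnt pathway genes were called lower there, with *dkk1* still higher at 2.90.

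**Figure D4:**
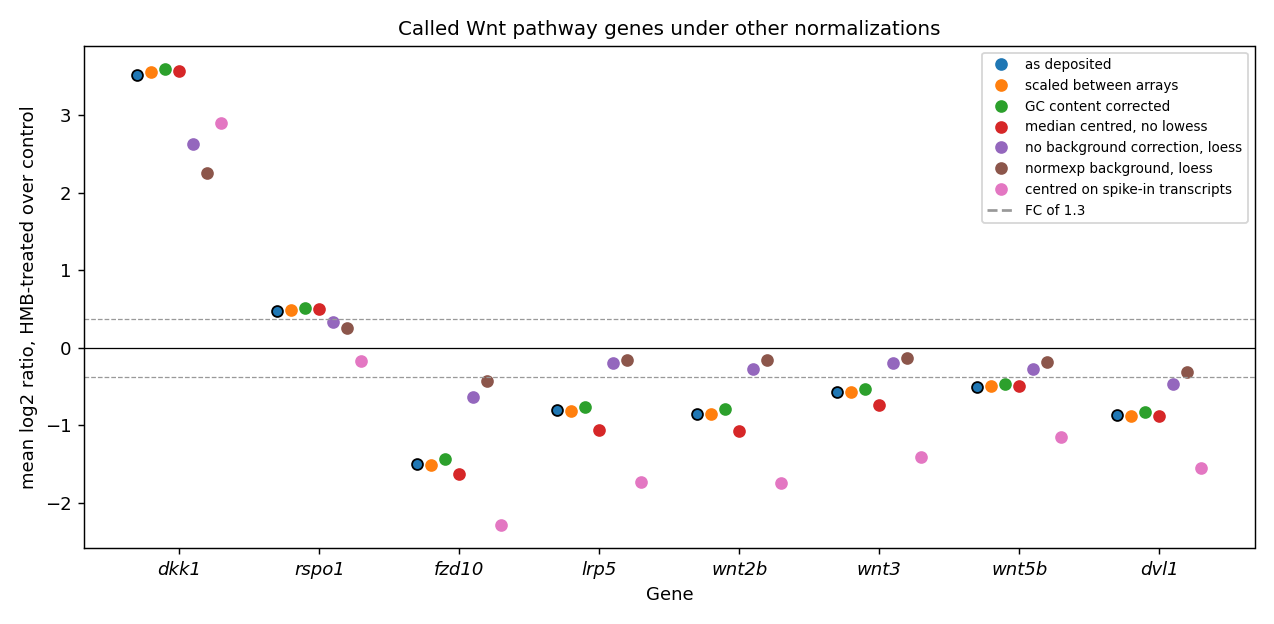
Mean log2 ratio of HMB-treated over control (y axis) of the 8 called Wnt pathway genes (x axis) as deposited and under 6 other normalizations, with dashed lines at an FC of 1.3 in either direction. *dkk1* stayed at 2.26 or more and *fzd10* at −0.43 or less, whereas *rspo1* was below 0 with spike-in centering and the ligands and *lrp5* came inside the dashed lines with loess after normexp or no background correction.

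Of the genes that cooperate with or oppose Wnt ligands outside the cell and were not chosen by symbol, 10 were tested (shares of calls here compare with the 28.9% of all genes). The secreted antagonists of this list that the array held, *frzb*, *wif1*, *sost*, *sostdc1* and *notum*, could not be tested. The values below are therefore those of receptors, co-receptors and cofactors. Of the 10, none rose and 5 fell (50%), with a median log2 ratio of −0.41 and medians on single arrays between −0.58 and −0.29. They were *gpc3* (−1.02) and *gpc4* (−0.45), heparan sulfate proteoglycans of the cell surface, *lrp4* (−0.66), the agrin receptor of muscle that also binds Wnt modulators, *ptk7* (−0.64), a co-receptor of planar polarity signaling, and *cthrc1* (−0.50), a secreted protein that binds Wnt and frizzled. With normexp and loess, 1 of the 10 was called lower. In this and the following lists, some genes entered the test through 1 channel only, so the filter favored the direction of that channel. With both channels above background on all arrays, 8 genes of this list were tested, with 0 higher and 4 lower. In that setting, 25.9% of all genes were called.

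The list of secretion, destruction complex and nuclear genes had 46 genes tested, of which 2 rose and 9 fell (23.9%), with a median of −0.08. The higher ones were *csnk1a1* (0.52), the kinase that primes beta-catenin for GSK3, and *bcl9l* (0.47), a co-activator of beta-catenin. *csnk1a1* was between −0.03 and 0.95 on the arrays. The 5 largest falls were those of *tnik* (−0.87), a kinase that acts with TCF, *nkd2* (−0.76), an inhibitor of dishevelled, *map3k7* (−0.66), *cxxc5* (−0.52) and *tnks2* (−0.52), a tankyrase that marks axin for degradation. With normexp and loess, 0 were higher and 3 lower. With both channels above background on all arrays, 44 were tested, with 1 higher and 8 lower.

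In the planar polarity and calcium branch, 26 genes were tested, of which 2 rose and 5 fell (26.9%), with a median of −0.13. *daam2* (0.78), a formin that binds dishevelled, and *nfatc4* (0.64), a calcineurin-dependent factor, were higher. *daam2* ranged from 0.08 on replicate 1 to 1.25 on replicate 4. The lower genes were *plcb4* (−1.23), a phospholipase C, the calcium-dependent kinases *camk2a* (−1.01) and *camk2d* (−0.57), the polarity gene *scrib* (−0.60) and *nfatc2* (−0.44). With normexp and loess, 1 was higher and 1 lower. With both channels above background on all arrays, 23 were tested, with 1 higher and 4 lower.

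Of known target genes of beta-catenin and TCF, 28 were tested, of which 6 rose and 7 fell (46.4%), with a median of −0.09. The medians on single arrays lay between −0.04 and 0.11, on both sides of 0. The 5 largest rises were those of *grem1* (1.17), a BMP antagonist, *vegfa* (0.94), a growth factor of vessels, *myc* (0.90), a growth regulator, *cd44* (0.68), the hyaluronan receptor, and *cyr61* (0.44), a matrix protein. Among the largest falls were those of *nrcam* (−1.20), an adhesion molecule, *snai2* (−1.08), a repressor of epithelial genes, *dll1* (−1.02), a Notch ligand, and *ephb3* (−0.70), an ephrin receptor. These genes answer to other pathways too, and the list went in both directions. With normexp and loess, 3 were higher and 3 lower. With both channels above background on all arrays, 26 were tested, with 5 higher and 6 lower. The numbers called in all 4 lists after centering on spike-in RNA were 0 higher and 93 lower.

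**Figure D5:**
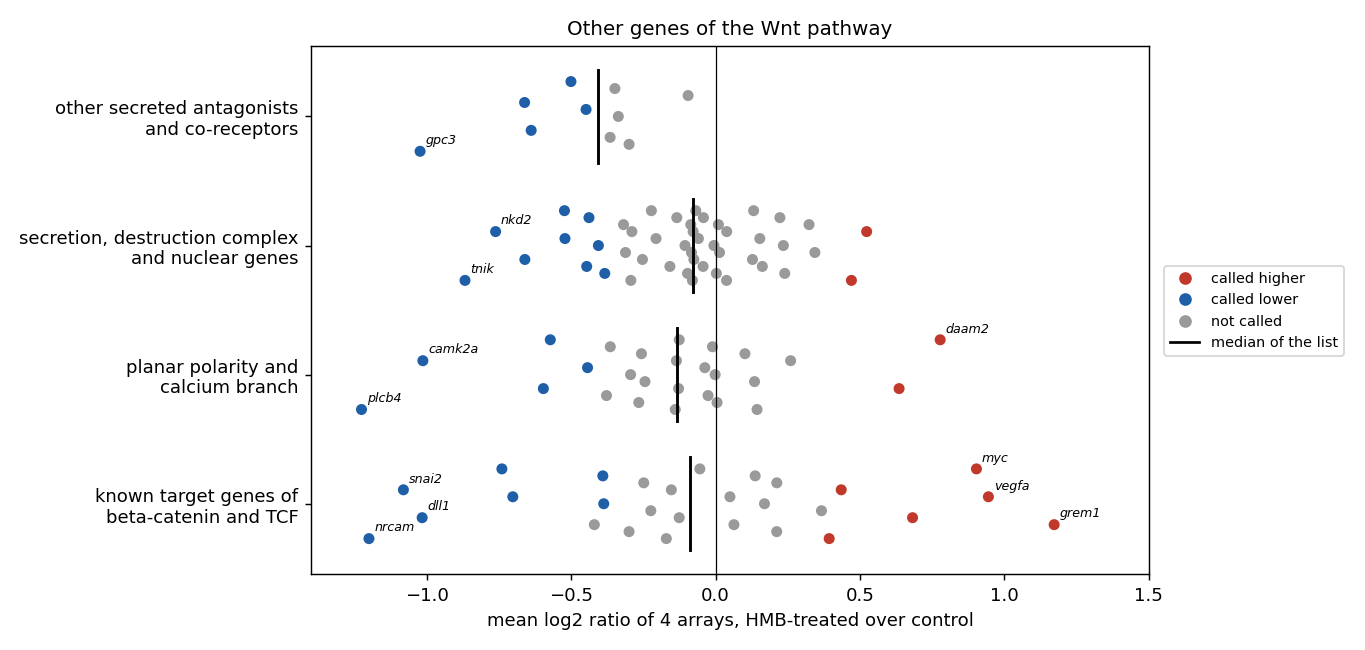
Mean log2 ratio of HMB-treated over control (x axis) of the tested genes of 4 other lists of the Wnt pathway (y axis, with points spread vertically for legibility), with black lines at the median of each list and names for the largest calls. The list of other secreted antagonists and co-receptors, in which no secreted antagonist could be tested, had no called gene above 0. The target genes had 6 above and 7 below.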

How the data were processed

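The authors deposited scanner output of 4 2-color Agilent horse arrays, made with Feature Extraction 10.10.1.1 per the file headers. The deposited intensity values are background-subtracted and normalized within the array (linear and lowess), and the deposited log10 ratios are Cy5 over Cy3, with dim signals replaced by a surrogate. A log2 ratio was computed here from each deposited log10 ratio. Control spots (1264 positive, 153 negative) and spots marked as non-uniform or outliers were left out. Tested probes had 1 channel well above background on each of the 4 arrays, and at least 3 ratios. Tested probes of one symbol were averaged. Genes were tested against 0 with limma 3.58.1 (intercept, empirical Bayes) in R 4.3.3, with Benjamini-Hochberg correction over all 13975 genes, and called at 0.05 and an FC of 1.3. The test was checked on simulated data.

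Each array was 1 replicate, and the labels do not say that the arrays came from separate animals, so p-values measure the spread between these arrays. Every tested Wnt pathway gene is named; of the other lists, up to the 5 largest rises and falls among called genes, except 1 gene that is not reported here. Genes and lists were chosen with earlier results of these data known. RefSeq (TB-T2T) held 39 of the 41 symbols, and *wisp2* and *wisp3* keep the array's names. Alternatives changed the test, the fold threshold, background, normalization, filter and replicates.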

Additional observations from a re-analysis of the deposited data

Results flagged for a closer look

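In 4 of the 19 tested Wnt pathway genes, 1 array stood apart from the other 3 by Dixon's criterion for 4 values, which chance meets in about 1 of 20 groups. The log2 ratio of *wnt11* was 0.27 on replicate 2, against values between −0.35 and −0.31 on the others. That of *wnt5b* was −0.0551 on replicate 1, against −0.68 to −0.61. For *fzd10*, replicate 1 was the lowest at −1.85, against −1.42 to −1.36. For *gsk3b*, replicate 3 was the highest at 0.0757, against −0.19 to −0.15. The arrays that stood apart were thus replicate 1 for 2 genes and replicates 2 and 3 for 1 gene each.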

How the results depend on the processing

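Of the 8 called Wnt pathway genes, *dkk1* was called in all 21 alternatives and *fzd10* in the 20 in which it was tested. The call was lost in 1 alternative for *dvl1*, 2 for *lrp5*, 4 for *wnt2b*, 7 for *rspo1* and 8 each for *wnt3* and *wnt5b*. The number of genes called higher was 1 instead of 2 with the methods' t-test after Benjamini-Hochberg correction, limma's treat, normexp, no background correction and spike-in centering, and 1 to 3 with each replicate left out. It was 3 with no fold threshold and with median centering without lowess. With no filter on dim probes it stayed at 2, but *fzd4* was called and *rspo1* was not. The number called lower was 3 instead of 6 with the corrected t-test and with treat, 1 with normexp, 2 with no background correction and with a filter on both channels, 15 with spike-in centering, and 4 to 6 with each replicate left out. It was also 4 with no filter on dim probes, 5 with the t-test without correction and 8 with no fold threshold. Of the other lists, 36 genes were called, but 23 with the corrected t-test, 10 with treat, 56 with no fold threshold, 12 with normexp, 19 with no background correction and 93 with spike-in centering. Of all genes, 4045 were called, but 1538 with treat, 6466 with no fold threshold, 1800 with normexp, 2393 with no background correction and 11466 with spike-in centering. Centering on spike-in RNA, which moved the median of all genes to −0.675, turned the sign of *axin1* (−0.50), *dkk3* (−0.50), *dvl2* (−0.59), *fzd1* (−0.38), *rspo1* (−0.16) and *wisp2* (−0.28), and *dkk3* lay between −0.0078 (without replicate 3) and 0.1434 with each replicate left out. Treat and the missing fold threshold change the size asked of a call, and the filter on both channels tests fewer genes. The offset of 50 in the normexp setting draws the ratios of dim probes towards 0. The part of that offset and the cause for the others were not tested. The test was already paired by array, because each array holds 1 sample of each group and the ratio is the pair. Dim signals limit *lrp5*, *fzd10*, *wnt2b* and *wnt3*, whose HMB channel was at background on some or all arrays.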
